A study of Drosophila melanogaster with 2 samples.

Results

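Of the peaks that chromatin immunoprecipitation sequencing (ChIP-seq) gave for Unc-4 in fly embryos, 373 lay away from any gene start. A peak was called distal when its summit, the position of highest signal, was more than 1 kb from every annotated transcript start of any gene type. These 373 were 7.61% (95% Wilson interval 6.90 to 8.39) of the 4899 peaks on the nuclear chromosomes, in a pooled list of 4921 that also held 22 mitochondrial peaks. The other 4526 nuclear peaks, with a summit within 1 kb of a start, are called promoter peaks. Sequence more than 1 kb from every start makes up 76.9% of the nuclear chromosomes. Records of transposable elements in the annotation were not taken as gene starts. With them counted, 350 peaks were distal.

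The material was whole Drosophila melanogaster embryos of the unc-4-GFP strain, aged 6 to 18 h, in 1 group with 2 biological replicates. The flies carry a transgene that makes Unc-4 as a fusion to eGFP, and the fusion was pulled down through its GFP tag, although the antibody label reads unc-4. The age is that of the source name, since the age label holds a value that cannot be read as this range. Chromatin was sheared by sonication to between 200 and 800 bp. The labels name a possible control experiment, which was not analysed here, and all cell types of the embryo were in 1 sample, so a peak cannot be assigned to neurons or to any other cells. The lists carry no read counts, so the depth of the libraries is unknown, and the intervals given are for counting peaks only. Peaks are not replicates, so each p-value describes these libraries. Signal is the authors' own value per peak, on a scale that is not stated, and is compared only within a list.

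Unc-4 is a homeodomain transcription factor known from neurons, where it takes part in setting neuronal identity. Homeodomains commonly recognise short AT-rich words such as TAATTA. Enhancers, the elements that raise transcription of a gene from a distance, lie in introns and intergenic sequence, whereas core promoters lie at transcript starts. In flies, repeats of GA are recognised by the GAGA factor, encoded by Trl, and by the related protein Pipsqueak, encoded by psq. The word TATCGA is the core of the DNA replication-related element, which is common in promoters of housekeeping genes and is recognised by the factor DREF, and boundary proteins of the BEAF type recognise a closely related word.

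Sequences of 101 bp around distal summits are shown in 3 sets, chosen as examples of words described below. The distal peaks were not sorted into classes by sequence. They are from the RefSeq Release 6 assembly (dm6), plus strand, 5′ to 3′, and each is named by the gene that holds or lies nearest to the summit. The first set holds the highest distal peaks with TATCGA, with every match to the word on either strand in capitals.
CG42709: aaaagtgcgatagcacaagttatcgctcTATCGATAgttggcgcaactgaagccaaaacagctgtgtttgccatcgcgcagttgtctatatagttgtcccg
SrpRbeta: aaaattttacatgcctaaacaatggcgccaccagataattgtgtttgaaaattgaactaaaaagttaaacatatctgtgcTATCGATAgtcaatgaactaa
Ncoa6: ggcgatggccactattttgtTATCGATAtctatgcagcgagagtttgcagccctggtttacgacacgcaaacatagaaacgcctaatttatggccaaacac
These windows are chr3L:12794673-12794773, chr3L:8718720-8718820 and chr2L:5325016-5325116. In each, a pair of overlapping matches on opposite strands makes a palindrome. The second set holds GAGAGA or its reverse complement TCTCTC, in capitals, at strong distal peaks and at 2 genes of the ecdysone response.
bmm: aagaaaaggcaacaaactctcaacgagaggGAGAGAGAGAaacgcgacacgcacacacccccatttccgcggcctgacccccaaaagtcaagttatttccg
fz2: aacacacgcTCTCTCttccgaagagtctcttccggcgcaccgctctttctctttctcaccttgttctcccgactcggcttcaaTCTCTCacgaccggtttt
Eip74EF: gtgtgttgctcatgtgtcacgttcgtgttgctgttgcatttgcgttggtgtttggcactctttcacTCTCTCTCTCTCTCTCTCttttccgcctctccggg
Eip75B: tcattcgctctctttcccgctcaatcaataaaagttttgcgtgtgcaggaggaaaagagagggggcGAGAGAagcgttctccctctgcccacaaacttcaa
They are chr3L:14781197-14781297, chr3L:19171726-19171826, chr3L:17563727-17563827 and chr3L:17995635-17995735, all in introns. The window in Eip74EF holds an unbroken run of TC repeats, while that in Eip75B holds a single match. The third set holds the 2 highest distal peaks with neither word that lie outside UTRs, both on the X. The 7-letter words TGACACG and ATCTCTA, which both windows share, are in capitals.
CG15468: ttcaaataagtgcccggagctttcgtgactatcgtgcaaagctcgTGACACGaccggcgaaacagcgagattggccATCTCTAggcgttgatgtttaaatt
inc: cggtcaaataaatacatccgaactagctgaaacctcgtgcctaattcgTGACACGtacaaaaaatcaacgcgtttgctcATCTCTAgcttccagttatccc
They are chrX:4956076-4956176 and chrX:1517672-1517772, both in intergenic sequence.

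Most distal summits lay in introns. Of the 373, 223 (59.8%, 54.7 to 64.6) were intronic and 104 (27.9%, 23.6 to 32.6) intergenic. A further 19 were in 3′ UTRs, 14 in coding exons, 7 in noncoding exons and 6 in 5′ UTRs. Among the intronic and intergenic summits, 68.2% (63.0 to 73.0) were intronic, against 57.8% of the distal sequence of these 2 kinds (two-sided exact binomial test, adjusted p = 0.000801). Among peaks above the median nuclear signal the difference had the opposite sign, at -4.32 percentage points (adjusted p = 0.764, exact binomial test), and in the list of replicate 2 alone it was 3.03 points (adjusted p = 0.703). The intron share therefore passed the test over all peaks and not in these subsets.

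Distances from the nearest start ran from 1001 to 41345 bp, with a median of 2616 bp. In all, 141 summits lay 1 to 2 kb away, 151 at 2 to 5 kb, 53 at 5 to 10 kb and 28 beyond 10 kb. At the threshold, the nearest summits outside it were in introns of SNF4Agamma (1001 bp, signal 94.4), which encodes the gamma subunit of AMP-activated protein kinase, of Inos (1007 bp, 96.7), which encodes the enzyme that makes inositol phosphate, and of crol (1016 bp, 64.8), a zinc finger gene. The nearest inside it were at Cdc14 (994 bp, 57.1), Myo10A (990 bp, 156) and ova (986 bp, 149). The nearest start belonged to a protein-coding gene for 305 distal peaks, to a noncoding RNA gene for 54, to a tRNA gene for 7, to a snoRNA gene for 5 and to a pseudogene for 2.

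**Figure D1:**
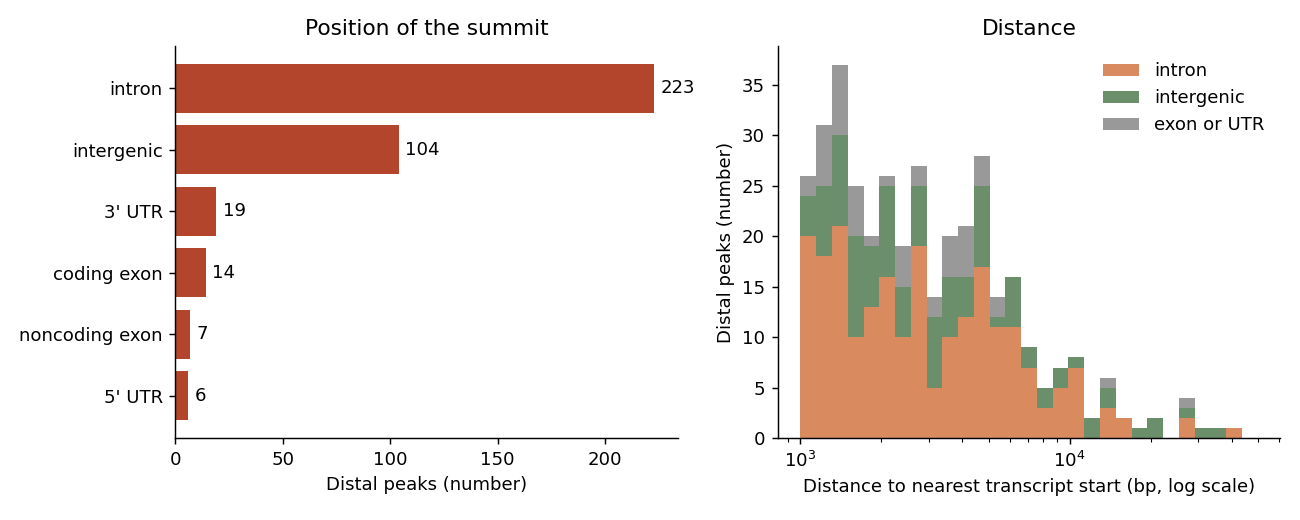
Left, number of distal peaks by the annotation at the summit. Right, number of distal peaks by distance from the summit to the nearest transcript start (bp, log axis), with introns, intergenic sequence and exons or UTRs stacked. Introns hold 223 of 373 summits, and the counts thin out beyond 5 kb.

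Distal peaks were found on every large chromosome arm. Per Mb of distal sequence, 2R had the most distal peaks (4.68) and 3R the fewest (3.09) of the large arms, with 3.15 for 2L, 3.62 for 3L and 3.99 for the X. The X and the 4 large autosomal arms did not differ beyond counting error (ratio 1.10, adjusted p = 0.459, two-sided exact binomial test), and the ratio was 0.988 with only protein-coding starts counted. Chromosome 4 had 1 distal peak and the Y had none.

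Distal peaks were weaker than promoter peaks. Their pooled signal ran from 2.37 to 550 with a median of 71.2, against a median of 115 for promoter peaks. Only 69 (18.5%, 14.9 to 22.8) exceeded the median of all nuclear peaks, against 52.6% of promoter peaks (two-sided Fisher's exact test, adjusted p = 1.81e-38). A single width of 516 bp was given to 337 (90.3%) of the distal and 54.7% of the promoter peaks. All 25 distal peaks with a signal under 10 had this width. Some distal peaks overlapped others, and the 373 formed 311 separate regions.

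Fewer distal than promoter peaks were found again in a replicate's own thresholded list. An overlap of at least 1 bp with the list of replicate 1 was found for 164 (44.0%), where 72.4% of all nuclear peaks and 74.8% of promoter peaks had one (adjusted p = 5.04e-33, two-sided Fisher's exact test). For replicate 2 the number was 133 (35.7%), where 63.4% of all nuclear and 65.7% of promoter peaks had one (adjusted p = 1.57e-29, Fisher's exact test). Both replicate lists held 82 distal peaks (22.0%, 18.1 to 26.5), where 55.7% of all nuclear and 58.5% of promoter peaks were in both (adjusted p = 1.37e-42, Fisher's exact test). The difference from promoter peaks was -36.5 points, and -22.5 points when the overlap had to cover 50% of both peaks (adjusted p = 1.94e-19, Fisher's exact test). Replicate 1 alone held 82, replicate 2 alone 51, and neither list held 158. The median pooled signal was 139 for distal peaks in both lists, 82.5 for those in replicate 1 alone, 71.0 for those in replicate 2 alone and 61.3 for those in neither. The conservative list held 262 (70.2%), where 85% of all nuclear and 86.2% of promoter peaks were in it (adjusted p = 5.02e-14, Fisher's exact test). The pooled list was made from the same reads as the replicate lists, so presence in them is not an outside check. It went with signal, but an overlap of 1 bp was enough, so a weak summit beside a strong one could count as present. A second summit near CG15468, with a pooled signal of 47.7, overlapped peaks of 357 and 196 in the replicates.

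Almost all distal peaks nevertheless overlapped a peak of both libraries before thresholding. In the ranked lists, which keep peaks of low reproducibility, 357 (95.7%) overlapped a peak in both replicates, where 98.3% of all nuclear peaks did. The difference from promoter peaks was -2.83 points (adjusted p = 0.000435, two-sided Fisher's exact test). Here too an overlap of 1 bp was enough. The size of the ranked lists is not given, so the share that would overlap by position alone is unknown. The median signal of the overlapping peaks was 46.3 in replicate 1 and 31.9 in replicate 2. Across these 357 peaks, which share the same libraries and are not independent samples, the signals of the replicates had a Spearman coefficient of 0.369. The strongest peaks ranked high in both libraries, while the weak ones formed a cloud with little order.

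**Figure D2:**
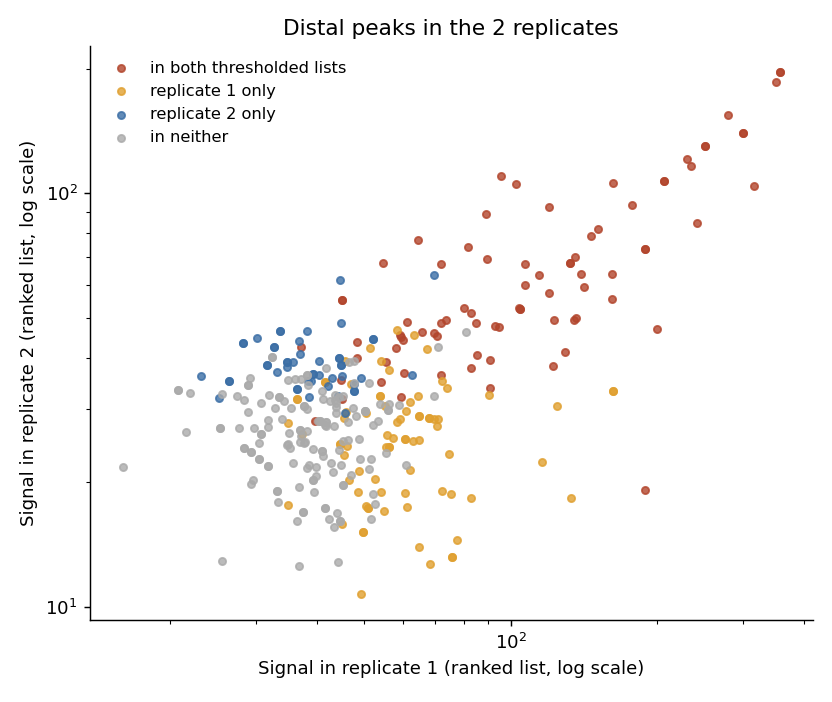
Signal in replicate 1 (x axis) against replicate 2 (y axis) for the 357 distal peaks overlapping both ranked lists, both on log axes in the authors' units, coloured by presence in the thresholded lists. Points in both lists extend to the upper right, and those in neither gather at the lower left, around the medians of 46.3 and 31.9.

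The lower presence of distal peaks was seen among weak peaks. In the lowest quartile of nuclear signal, 6.41% of 156 distal and 27.4% of promoter peaks were in both lists (adjusted p = 4.05e-09 over 12 quartile tests, two-sided Fisher's exact test). In the next quartile the shares were 9.46% and 21.5% (adjusted p = 0.000864, Fisher's exact test). In the quartile above the median they were 80.7% of 57 distal and 78.6% of promoter peaks, and in the highest 12 of 12 distal and 99.3% of promoter peaks were in both (adjusted p = 1 in each, Fisher's exact test). Among all peaks above the median signal the difference was -5.10 points (adjusted p = 0.260, Fisher's exact test). Because any overlap counted, a weak summit beside a strong one could be present through its neighbour. The summit of 27.7 in Tudor-SN, for example, overlapped a peak of 316 in replicate 1. The quartile tests were not repeated with overlapping peaks merged, so the part of such neighbours in the low quartiles was not tested.

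By distance, both lists held 29.8% of the distal peaks at 1 to 2 kb, 17.9% at 2 to 5 kb, 20.8% at 5 to 10 kb and 7.14% (2 of 28) beyond 10 kb. Between 1 to 2 kb and more than 5 kb (16.05%) the difference missed the threshold (adjusted p = 0.0727, two-sided Fisher's exact test), as did that between introns (19.3%) and intergenic sequence (25%, adjusted p = 0.296, Fisher's exact test).

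GA repeats marked the distal summits. GAGAGA or its reverse complement occurred within 50 bp of 70 distal summits (18.8%, 15.1 to 23.0) and of 5.81% of promoter summits (odds ratio 3.74, adjusted p = 1.71e-15 over 10 words, two-sided Fisher's exact test). In windows of the same 101 bp centred 500 bp to either side of the distal summits, the share was 4.29% on each side. Over all 1042186 windows of that length in distal sequence, it was 3.51%. Distal summits had a median GC content of 45.5%, against 41.6% for promoter summits and 41.6% for all distal windows, and a median of 17.8% of repeat-masked bases against 6.93% at promoters. The part of base composition and of masked repeats in the GAGAGA share was not tested.

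At distal summits the word's share lay between 18.2% and 20.5% in the lowest 3 quartiles of signal, while at promoter summits it was lower among strong peaks. Among summits with the word, the longest run of alternating G and A had a median of 8 bases at distal and 7 at promoter peaks. Runs of 10 or more bases were found at 25 of 70 (35.7%) distal and 17.9% of promoter summits with the word. In the lowest 3 quartiles of signal the word occurred at 20.5%, 18.2% and 19.3% of distal and at 7.95%, 9.84% and 4.37% of promoter summits (adjusted p = 3.88e-05, 0.00869 and 0.000273, Fisher's exact tests). In the highest quartile it was at 0 of 12 distal and 1.73% of promoter summits. It was at 17.1% of the 82 distal peaks in both replicates and at 19.2% of the other 291 ( adjusted p = 0.750, Fisher's exact test), a comparison chosen after seeing the data, whose intervals are 10.5 to 26.6 and 15.1 to 24.2. By distance it occurred at 18.4%, 17.9%, 17.0% and 28.6% of distal summits in the 4 bins, the last being 8 of 28. Intronic summits carried it in 23.3% and intergenic ones in 12.5% (adjusted p = 0.0635, Fisher's exact test, also chosen after seeing the data).

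TATCGA, frequent at promoter peaks, was less frequent at distal ones. It was within 50 bp of 39 distal summits (10.5%, 7.74 to 14.0) and of 33.9% of promoter summits (odds ratio 0.228, adjusted p = 3.33e-23, two-sided Fisher's exact test). The distal share was nevertheless above the 5.09% found 500 bp to either side and the 3.53% of all distal windows. At distal peaks TATCGA went with strength and reproducibility. It was at 29.3% of the distal peaks in both replicates, against 5.15% of the others (adjusted p = 7.23e-08, Fisher's exact test, chosen after seeing the data). In the 4 signal quartiles, from low to high, the distal shares were 1.92%, 10.1%, 31.6% and 25%, and the promoter shares 8.61%, 14.4%, 44.2% and 63.6% (adjusted p = 0.00466, 0.272, 0.112 and 0.0203, Fisher's exact tests). With distance its share went from 14.9% at 1 to 2 kb to 8.61%, 7.55% and 3.57% in the farther bins. The test of 1 to 2 kb against more than 5 kb (6.17%) missed the threshold (adjusted p = 0.0815, Fisher's exact test), as did that of introns (7.17%) against intergenic sequence (14.4%, adjusted p = 0.0815, Fisher's exact test). In the list of replicate 1 alone the latter difference was -24.8 points (adjusted p = 0.00529, Fisher's exact test). In that of replicate 2 alone it was -13.4 points (adjusted p = 0.385, Fisher's exact test).

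**Figure D3:**
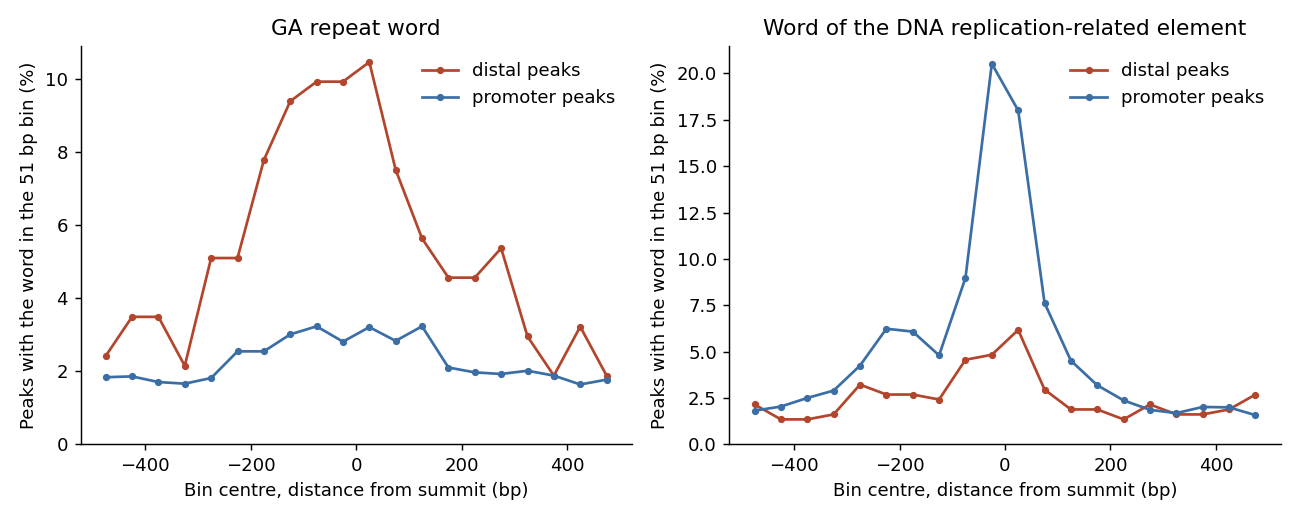
Share of distal and promoter peaks (y axis, percent) with GAGAGA (left) or TATCGA (right) on either strand in bins of 51 bp, by distance of the bin centre from the summit (x axis, bp). GAGAGA reaches 10.5% of distal peaks in the bin at 25 bp, after shares of 9.38% or more from -125 bp on. Its highest share of promoter peaks is 3.23%, in the bins at -75 and 125 bp. TATCGA reaches 6.17% of distal peaks at 25 bp and 20.5% of promoter peaks at -25 bp.

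Of the other 8 words tested, CACACA was more frequent at distal summits, with 13.9% against 7.51% (adjusted p = 0.000146, Fisher's exact test), but it also occurred in 8.04% of all distal windows. GGTCAC was less frequent at distal than at promoter summits, with 2.14% against 7.56% (adjusted p = 4.73e-05, Fisher's exact test). Its distal share was near the 2.37% of all distal windows. TAATTA, the homeodomain word, was at 4.83% of distal and 5.81% of promoter summits (adjusted p = 0.634, Fisher's exact test). It was in 6.65% of all distal windows and in 7.77% and 6.97% of the windows 500 bp to the left and right of distal summits. The E-box CACGTG (3.22% against 1.64%) and CAGCTG (6.70% against 10.03%) each had an adjusted p of 0.0616 in Fisher's exact test. The word CAGGTA occurred at 1.88% of distal summits, AGATAA at 3.49% and AACCGG at 2.95%, and none of the 3 passed the test.

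**Figure D4:**
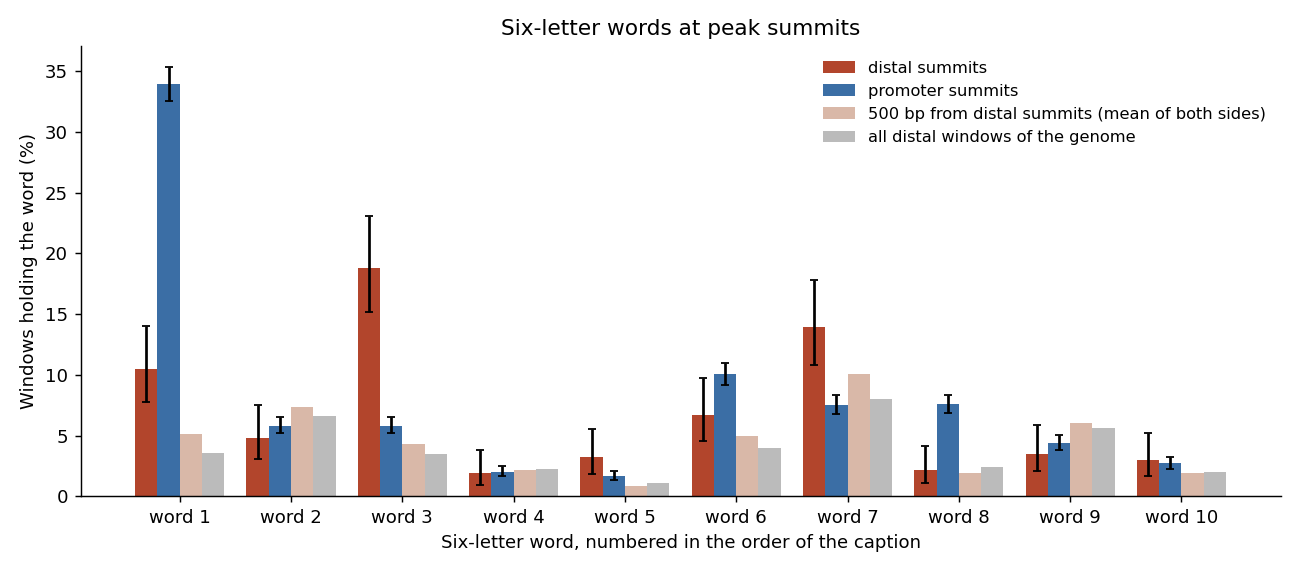
Share of 101 bp windows (y axis, percent) holding each of 10 words on either strand, where word 1 is TATCGA, word 2 is TAATTA, word 3 is GAGAGA, word 4 is CAGGTA, word 5 is CACGTG, word 6 is CAGCTG, word 7 is CACACA, word 8 is GGTCAC, word 9 is AGATAA and word 10 is AACCGG, for distal summits, promoter summits, the windows 500 bp from distal summits and all distal windows. Error bars are 95% Wilson intervals. Distal summits exceed promoter summits beyond the intervals for GAGAGA and CACACA and lie below them for TATCGA and GGTCAC.

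A screen of all 2080 words of 6 letters gave 64 (3.08%) that were more frequent at distal than at promoter summits and 38 (1.83%) that were less frequent, at an adjusted p below 0.05 (two-sided Fisher's exact tests). Of the more frequent ones, the smallest adjusted p belonged to AGAGAG, found at 78 (20.9%) of distal and 6.65% of promoter summits (adjusted p = 1.22e-14, Fisher's exact test), and the next to the overlapping GAGAGA. They were followed by AGAGGG (9.92% against 2.28%) and AAGAGA (16.4% against 6.03%). The more frequent words held on average 3.66 G or C letters and the less frequent ones 1.79, against 3 over all words, and the distal windows were richer in GC, as given above.

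**Figure D5:**
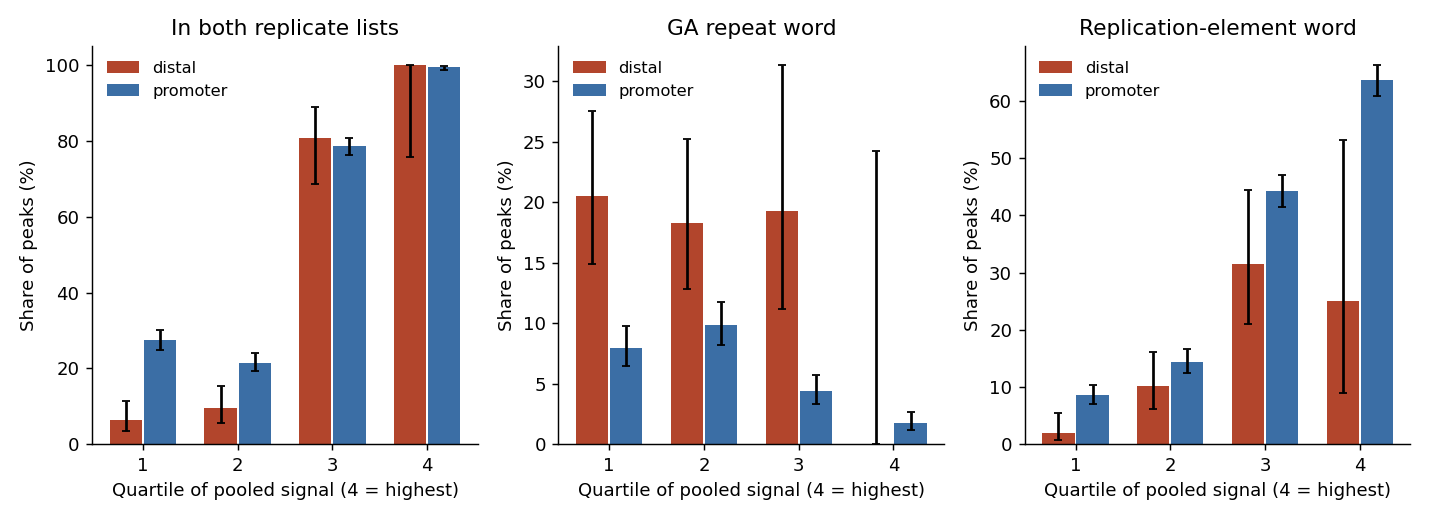
Share of distal and promoter peaks (y axes, percent) in both replicate lists (left), with GAGAGA (middle) and with TATCGA (right), by quartile of the pooled signal of all nuclear peaks (x axis). Error bars are 95% Wilson intervals. The distal share with GAGAGA lies between 18.2% and 20.5% in the lowest 3 quartiles, while the promoter share with TATCGA rises from 8.61% to 63.6%.

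The 20 strongest distal peaks are described apart, with no test of their difference from the rest. Their signals ran from 205 to 550, all 20 were in both replicate lists and in the conservative list, and none had the width of 516 bp. Presence in both lists goes with signal, since 99.3% of promoter peaks in the highest quartile had it too. They comprised 10 intergenic, 7 intronic and 3 UTR summits, whereas 94 of the other 353 (26.6%) were intergenic, 216 (61.2%) intronic and 22 in UTRs. TATCGA was at 8 of the 20 and 31 (8.78%) of the others, and GAGAGA at 0 of the 20 and 70 (19.8%) of the others. The X held 10 of the 20 (50%), against 63 of the other 353 (17.8%) and 4 of the 20 strongest promoter peaks. The strongest of all, at chrX:4955921-4956404 and 5002 bp downstream of the start of CG15468, had a pooled signal of 550, with 357 in replicate 1 and 196 in replicate 2. The next was in the 3′ UTR of CG16989 (X, 536), with 350 and 186 in the replicates. It was followed by an intron of CG42709 (3L, 440), with 300 and 140, and the next a site 4652 bp from the start of inc (X, 423), with 280 and 154. The gene inc encodes the adaptor protein insomniac, known for its effect on sleep. These 4 were far above the medians of 46.3 and 31.9 in both libraries.

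The other 16 included intronic summits in Pp2C1 (331), a protein phosphatase gene, org-1 (277), a T-box gene of muscle founder cells, Ncoa6 (271), a coactivator of nuclear receptors, for (249), the foraging cGMP-dependent kinase, IntS6 (215), an Integrator subunit, and kirre (213), an adhesion protein of myoblast fusion. Outside introns they were nearest to CG9166 (384), CG6465 (348), SP1029 (344), SrpRbeta (311), a signal recognition particle receptor subunit, Tpr2 (271), CG3168 (230), CG4593 (220), Mnt (210), a partner of Max, lwr (207), the SUMO conjugating enzyme, and zfh1 (205), a zinc finger homeodomain repressor, taking protein-coding genes only. Signals of this list are those of the pooled peak. The summit in kirre lay 208500 bp downstream of its host's start but 1271 bp from that of CG3603.

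Of the 20 strongest distal peaks, 12 lay close to the 3′ end of a gene. The 10 intergenic summits among the 20 strongest were all within 1 kb of a gene's 3′ end, with a median of 212 bp, against 47 of all 104 intergenic summits (45.2%, median 1376.5 bp). Within 500 bp of a 3′ end lay 12 of the 20 strongest distal summits (60%, 38.7 to 78.1), 45 of the other 353 (12.7%, 9.67 to 16.6) and 5.33% of distal sequence. With the distal peaks cut by signal into 4 equal parts, the share was, from low to high, 9.57%, 15.1%, 8.60% and 28.0%. By class, it was 37.5% of the 104 intergenic and 3.14% of the 223 intronic summits. The 20 strongest held a larger share of intergenic summits than the others, and the 5.33% is of distal sequence of all classes. The part of class in the share near 3′ ends was not tested. Intergenic summits lay between convergent genes in 42 of 104 cases (40.4%), a layout that takes up 27.0% of distal intergenic sequence. Genes on the same strand flanked 45 (43.3%, against 50.8% of the sequence) and divergent genes 17 (16.3%, against 18.5%). Median signals were 92.4, 70.3 and 57.6 in these 3 layouts. This description was chosen after the positions of the strongest peaks had been seen, and no test was made.

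The 2 words that CG15468 and inc share were rare outside the 20 strongest distal peaks. TGACACG was within 50 bp of 4 of the 20 strongest distal summits, 7 of the other 353 (1.98%), 1.06% of promoter summits and 0.541% of all distal windows. ATCTCTA was at 5 of the 20, 8 of the others (2.27%), 2.81% of promoter summits and 0.877% of all distal windows. Both were present at 3 of the 20, 0 of the other 353 and 4 of 4526 promoter summits. The words were noticed in the windows of CG15468 and inc, and both windows are among the 20 in each of these counts. The counts are therefore a description only.

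The 223 intronic summits lay in 156 genes, 155 of them protein-coding. These hosts were long, with a median of 25348.5 bp against 5008 bp for the 6862 coding genes with intron sequence more than 1 kb from every start, of which 2.26% hosted a summit. A promoter peak of their own was found at 104 hosts (66.7%), against 44.0% of the genes that could host. In 141 cases (63.2%) the summit was in the first intron of some transcript of the host. The share of distal intron sequence in such introns is not given, so this is a description only. The part of gene length in these shares was not tested. The median host intron measured 8557 bp, and the median summit lay 4831 bp downstream of the host's nearest upstream start. For 16 summits more than 1 coding gene could be the host, and none of these values says which gene a site acts on.

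Most hosts held 1 summit. There were 105 such genes, 39 with 2 and 12 with 3 or more. Glut4EF, beat-Ib, shn and psq held 4 each. The gene shn encodes a zinc finger cofactor of Dpp signalling, beat-Ib a cell surface protein of the Beaten path family, and psq the GA-binding protein Pipsqueak. Ncoa6, sbb, Tlk, Eip74EF, trbl, Dad, Dscam1 and Eip75B held 3 each; trbl encodes the pseudokinase Tribbles and Dad an inhibitory Smad. Close summits can be parts of a single region: those of Ncoa6 formed 1 region with signals of 271, 106 and 47.5, and all 3 were in both replicate lists. The 4 summits of psq formed 2 regions with signals from 3.01 to 71.3, none in both lists.

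Genes of the ecdysone response, which encode nuclear receptors and transcription factors of the steroid hormone that times moulting, held several distal summits. Of 13 in a list of 16 annotated genes that could host a summit, 6 did, with 13 summits in all, beside 2.26% of all coding genes that could. EcR, the receptor of the hormone, had the strongest, at chr2R:6151096-6151611 with a signal of 203 (132 in replicate 1 and 67.8 in replicate 2). It held TATCGA and lay 1322 bp from a tRNA gene. In Eip74EF, an Ets factor gene, the 3 signals were 91.0, 73.8 and 62.3, and the first was in both lists. Hr39 had 80.7 and 35.4, Hr4 71.0, Hr3 70.4 and 33.6, and Eip75B 69.7, 58.2 and 13.6; these 4 encode nuclear receptors. GAGAGA was at the highest summit of 4 of the 6 (Eip74EF, Hr39, Hr3 and Eip75B). The summit of 80.7 in Hr39 had signals of 49.8 and 15.2 in the replicates, that of Hr3 47.0 and 20.8 and that of Eip75B 48.7 and 21.3, so replicate 2 was below the distal median of 31.9 at each. The list was drawn up with earlier results of these data known, and these genes are long, so the count supports no statement about the pathway.

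In the other 10 lists the number of hosts ran from 0 to 4. Each count is of the genes listed, which are samples of a class and not all of it, and it stands beside the 2.26% of all coding genes that could host; 8 of the 10 lists lay above that share. The part of gene length in this was not tested. Of 25 homeodomain genes of neurons that could host one, 2 did: pdm3 (signal 103, in both replicate lists) and the Hox gene lab (68.4, in neither). Of 12 Hox genes and cofactors 2 did, lab and pb (67.1). Among genes of axon guidance and adhesion, 1 of 37 did, Dscam1, a receptor with many isoforms, whose highest signal was 71.0. Of 10 neuroblast and temporal factors and 28 genes of excitability and synapses, none had an intronic distal summit; KCNQ (129) and SLO2 (79.8), potassium channel genes outside the list, did. Among 23 BTB domain and chromatin factors, 2 did: Trl (107) and psq (71.3), the genes of the GA-binding proteins named above. Mef2, the myogenic regulator, had a signal of 165 (123 and 49.3 in the replicates) at a summit with GAGAGA, and Msp300, a giant nuclear envelope protein of muscle, had 57.2, which made 2 of 21 muscle genes. Of 21 genes of trachea and epidermis 2 had one, trh (93.2), the tracheal master regulator, and scrib (73.2), a cell polarity gene. Of 21 listed genes of the Notch and EGFR pathways 4 had one: ru (156), a rhomboid protease, Delta (108), a Notch ligand, mam (67.5), the Notch coactivator, and N (57.2) itself. The summit in Delta held GAGAGA and was in both replicate lists, with signals of 72.0 and 36.4. Of 27 listed signalling kinases and phosphatases 3 did: hppy (162), msn (104) and SNF4Agamma (94.4). Kinase and phosphatase genes outside that list had them too, among them Pp2C1 and for, described above, Ptpmeg (192), Tlk (107) and Raf (2 summits, the higher at 100.2). KCNQ, SLO2, Ptpmeg and Raf were picked after their values were seen. Genes of these classes outside the lists were not counted, so no share can be given for them.

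The 10 farthest summits, from 18645 to 41345 bp away, included 1 in both replicate lists. This was the farthest, in an intron of CG43759 on the X, with a signal of 124 (80.1 in replicate 1 and 52.6 in replicate 2). The next lay 34512 bp from the nearest start, with CG17571 the nearest coding gene (signal 75.2), and it held TATCGA. A pair lay 32253 and 28838 bp from CG43245 (43.8 and 48.5). Overlapping peaks in a coding exon and an intron of Tet, which encodes the fly relative of the TET dioxygenases, had signals of 32.4 and 94.6. The others were in an intron of Rbp6 (63.7), an RNA-binding protein gene, and in intergenic sequence near ems (97.5), a homeodomain gene of head and brain, CG43402 (101) and Su(z)2 (135), a Polycomb group gene. GAGAGA was at 3 of the 10, those at Rbp6 and Su(z)2 and the farther of the pair at CG43245.

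Distances from distal peaks to promoter peaks varied widely. A promoter peak summit lay within 5 kb of 153 (41.0%) and none within 10 kb of 161 (43.2%), with a median distance of 7774 bp. The share of distal sequence at these distances is not given, so the values do not say whether distal peaks lay nearer to promoter peaks than other distal sequence. None of the 373 summits had a central 36-base word that occurs more than once in the assembly, and 0 of 373 allows a share of up to 0.804%. At promoter peaks 30 (0.663%) did (adjusted p = 0.166, Fisher's exact test). With only protein-coding starts counted, so that peaks at tRNA and other noncoding genes could be distal, the direction turned, and multi-copy summits were 2.82 points more frequent at distal peaks (adjusted p = 2.00e-08, Fisher's exact test). Annotated transposable elements held 4 distal summits.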

How the data were processed

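The 6 deposited peak lists used were thresholded and ranked lists per replicate and a pooled and a conservative thresholded list. Per the deposited text descriptions they are on dm6, ordered or filtered by the authors by irreproducible discovery rate. Which peak caller, aligner and depth applied is not stated in the sources used here. For each peak the deposited lists give the authors' signal, a score, a −log10 q-value and, as 1 other quantity, the summit offset. The signal and summit were used, and the score and q-value were not.

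Summits were set against transcript starts and classes of the Ensembl BDGP6.54 annotation (release 115), with UTRs taking precedence over exons and exons over introns. Words were counted on both strands. Tests (scipy 1.17.1) were two-sided Fisher's exact and exact binomial tests, adjusted by Benjamini-Hochberg within families of 6 peak properties, 10 words, 6 comparisons within distal peaks, 12 by quartile, 5 added later and 2080 screened words. Wilson intervals are 95%. Listed genes were matched to the annotation by symbol or, for 7 spellings, through RefSeq synonyms. Named genes are those at the 20 strongest and 10 farthest distal peaks, at the threshold, with 3 or more intronic summits, or up to 3 per gene list by signal. The genes bmm and fz2, shown for their sequences, and Hr3, Hr4, N, KCNQ, SLO2, Ptpmeg and Raf were added after their values were seen. The peaks, lists and tests were chosen with earlier results of these data known.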

Additional observations from a re-analysis of the deposited data

How the results depend on the processing

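Over 12 results and 127 alternatives, 108 were classed as unchanged, which for a tested result means the same direction and side of the threshold. They include 6 for the number of distal peaks, which has no test and was judged by the size of the count. GAGAGA stayed 6.83 to 19.2 points higher at distal peaks (highest adjusted p 0.000128, Fisher's exact test) and TATCGA 15.7 to 28.8 points lower in every alternative run (-28.8 to -15.7, highest adjusted p 0.000591). The number of distal peaks was 232 beyond 2 kb, 69 among peaks above the median signal and 142 to 172 in the list of a single replicate. Among peaks above the median signal, the both-replicate difference was -5.10 points (adjusted p = 0.260, Fisher's exact test). In that same subset the intron excess was -4.32 and the intron minus intergenic difference in presence 2.39. With protein-coding starts alone, multi-copy summits were 2.82 points more frequent at distal peaks and the X ratio was 0.988. Leaving out a replicate gave an intron excess of 3.03 to 9.34. The intron minus intergenic difference in TATCGA passed without replicate 2 (-24.8, adjusted p = 0.00529, Fisher's exact test). Without replicate 1 it did not (-13.4, adjusted p = 0.385, Fisher's exact test). The same difference passed beyond 500 bp (-10.3), in the conservative list (-10.6) and with 100 bp windows (-12.8). The near minus far difference passed for presence beyond 500 bp (17.0) and with transposable element starts (15.04), and for TATCGA beyond 500 bp (9.67), with coding starts (11.5) and with transposable element starts (10.8). The cause of these changes was not tested. The alternatives with transposable elements, with a signal of 10 or more and all those for GAGAGA were added after seeing the data. Presence in both lists without a replicate and near against far beyond 2 kb were not run. Unknown depth limits what absence from a list can mean. No paired analysis was possible because there is 1 group.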
